A study of Mus musculus with 35 samples.

Results

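The nucleolar ribosome biogenesis genes described here are 43 mouse genes whose products make and process ribosomal RNA and assemble the ribosomal subunits in the nucleolus. They were taken from a list of symbols and matched to the table by their Entrez gene identifiers, and a gene was kept where its value was at least 10 in 3 or more libraries. All 43 of the 43 listed genes were found and kept, of 24454 genes in the table and 12682 that passed the same filter. The rule used gene names and this minimum level, and no measured change. The list itself was chosen with earlier results of these data known. The lowest value of any of the 43 genes in any library was 18.24 normalized counts. The lowest read count was 16, in a different library, and the filter on low values removed none of the genes.

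The libraries were RNA of cells that the labels describe as sorted GFP/CD45.2+, from the bone marrow of C57BL/6 mice that had received leukemia carrying 1 of 3 regulatable fusions of the nucleoporin gene NUP98. NUP98-JARID1A joins NUP98 to a histone demethylase (also called KDM5A), NUP98-NSD1 to a histone methyltransferase, and NUP98-DDX10 to a DEAD-box RNA helicase that in yeast (Dbp4) itself acts in ribosome biogenesis. For each fusion there were 3 libraries from mice given doxycycline at 4 mg/ml for 3 days, 3 from mice given it for 5 days, and 4 from untreated mice, of which 1 was titled day 3 and 3 were titled day 5. A further 3 control libraries without doxycycline have NUP98/NSD1, NUP98/JARID1A and NUP98/DDX40, NUP98/DDX41 or NUP98/DDX42 in their genotype label. The labels number replicates but name no animals, clones or promoters, so each p-value rests on the spread between libraries within groups. In the main fit that spread was estimated over all 10 groups together, and not from the groups compared alone. The promoter that drives each fusion, any pooling of animals and the host cells left in the marrow are not given in the labels.

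Ribosomes are built from ribosomal RNA that RNA polymerase I transcribes in the nucleolus. The small subunit processome folds and cuts the 5′ part of that transcript, box C/D and box H/ACA small nucleolar ribonucleoproteins (snoRNPs) guide its methylation and pseudouridylation, and separate sets of factors assemble the large subunit and mature the small one. Growing and dividing cells need these factors in quantity, and many of their genes are textbook targets of the transcription factor Myc. In the bone marrow, immature myeloid cells carry large nucleoli, which shrink as the cells mature into neutrophils and monocytes.

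The 33 libraries held 12043487 to 28903870 reads assigned to genes. The fusion transcript itself averaged 85.3 ± 21.9 normalized counts at day 5 of doxycycline, against 3225 ± 202 untreated for NUP98-JARID1A, 46.5 ± 10.1 against 54846 ± 2575 for NUP98-NSD1 and 6.30 ± 1.87 against 12449 ± 2381 for NUP98-DDX10 (SD, n = 3 and 4). In the controls NUP98-NSD1 and NUP98-DDX10 were at 0 in every library, which allows up to 3 reads in each, and NUP98-JARID1A was at 2.52 to 72.0, so fusion RNA in the amount of the untreated leukemias was not detected there. The eGFP transcript moved with the fusions: it averaged 323 ± 17.2 at day 5 and 11652 ± 1469.9 untreated for NUP98-JARID1A, 16.8 ± 4.68 and 16473 ± 1021 for NUP98-NSD1 and 3.15 ± 0.936 and 10511 ± 3016 for NUP98-DDX10 (SD, n = 3 and 4), and was 13.9 to 210.3 in the controls. All of these libraries carry the GFP+ label, but eGFP RNA in the doxycycline and control libraries was far below that in the untreated leukemias. Luciferase RNA averaged 5291 ± 702, 1844 ± 467 and 2286 ± 393 at day 5 and 3661 ± 700.5, 1993 ± 174 and 1502 ± 232 untreated, in the same order of fusions, and was 9.09 to 473 in the controls. How the doxycycline and control cells were gated is not given in the labels, and its part in the results was not tested. Ptprc, which encodes CD45, was present in every library, at 4949 or more normalized counts. Control replicate 3 stood apart from the other controls. Its summed level of 11 mature neutrophil markers was 275211 normalized counts against 3156549 and 3447533 in control replicates 1 and 2, and its erythroid sum was 73281 against 7561 and 10902. Results that use the controls are therefore given with and without it.

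To determine how ribosome biogenesis genes changed once each fusion was switched off, day 5 doxycycline libraries were compared with untreated libraries of the same fusion. No control library had doxycycline, so within a fusion its loss and doxycycline itself cannot be told apart. In the fit over all 10 groups the genes fell broadly in NUP98-JARID1A cells, fewer were called lower in NUP98-NSD1 cells, and 1 was called in NUP98-DDX10 cells. These counts depended on that shared fit. Fitted within 1 fusion, 19 were called lower in NUP98-NSD1 cells and 4 in NUP98-DDX10 cells, where more were called higher than lower. The share of all features called in the fits within 1 fusion is not given here, so their counts have no background beside them. Together the 43 genes took 0.120% to 0.174% of assigned reads in the 3 NUP98-JARID1A day 5 libraries and 0.287% to 0.338% in the 4 untreated ones, and the ranges did not overlap. In NUP98-NSD1 cells the share was 0.209% to 0.274% at day 5 and 0.297% to 0.323% untreated, and in NUP98-DDX10 cells 0.305% to 0.318% at day 5 and 0.273% to 0.311% untreated. In bulk RNA, fewer cells expressing a gene and less RNA per cell cannot be told apart.

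**Figure D1:**
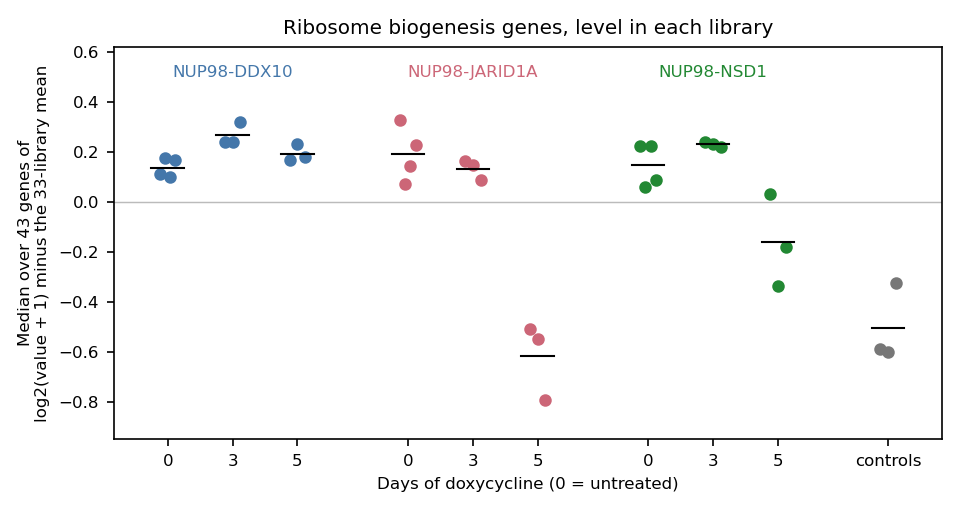
Median over the 43 genes of each gene's log2(normalized count + 1) minus its mean over the 33 libraries, one point per library, by group. The 3 NUP98-JARID1A day 5 libraries sit at -0.51, -0.55 and -0.79, below all 4 of their untreated libraries, while the 3 NUP98-DDX10 day 5 libraries sit at 0.17, 0.23 and 0.18, and the controls at -0.59, -0.60 and -0.32.

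Fold changes are differences of mean log2(normalized count + 1), given with their standard error (SE), and a gene is called changed where limma's Benjamini-Hochberg adjusted p over all 12687 features tested was under 0.05. In NUP98-JARID1A cells 39 of the 43 genes fell and none rose (0 also at an unadjusted p under 0.05, with edgeR and with DESeq2), with 21.2% of all features tested called lower. Their median log2 fold change was -0.80, with a range of -1.46 for Tsr1 to 0.054 for Imp3, and the median of all features was -0.015. In 36 of the 43 genes every day 5 library lay below every untreated library, as was so for 18.4% of all features. Of the 39 calls, 33 were made in each of 33 repeat fits that left out 1 library. The 4 genes with no call were Bysl, Utp18, Imp3 and Imp4, at -0.053, -0.14, 0.054 and -0.18, all encoding small subunit factors. In the same libraries 19 of 21 monocyte and macrophage markers were called higher, and the share of all features called higher there is not given here. The part of these markers' cells in the fall was not tested.

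In NUP98-NSD1 cells 12 of the 43 genes fell at day 5, with 11.9% of all features called lower. None rose (0 also at an unadjusted p under 0.05, with edgeR and with DESeq2). The median log2 fold change was -0.24 and the range -0.70 for Ppan to 0.39 for Fbl. Every day 5 library lay below every untreated library for 17 genes, against 19.7% of all features. The 12 genes were Nop56, Gar1, Dkc1, Utp4, Utp15, Heatr1, Rrs1, Ppan, Noc3l, Polr1b, Nolc1 and Gnl3. All 12 were among the 39 that fell in NUP98-JARID1A cells, 100% of the shorter list and 30.8% of the longer, but with only 4 of the 43 genes outside the longer list nearly any 12 of them would lie in it. The count depended on NUP98-NSD1 day 5 replicate 2, the library with the lowest median of that group: without it, 4 genes were called.

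In NUP98-DDX10 cells the median log2 fold change at day 5 was 0.016, and only Nop10, a core protein of the box H/ACA snoRNP, was called, at -0.41 ± 0.14 (limma adjusted p 0.0448). By the same test 8.64% of all features were called lower and 6.49% higher. Nop10 stood at 1118, 987 and 808 normalized counts in the day 5 libraries and 1425, 1234, 1242 and 1226 in the untreated ones. The groups did not overlap, but 1 untreated library, the one titled day 3, lay far above the other 3, and without it the call was lost (0 genes called). The call was lost in 15 of the 33 fits that left out 1 library, with adjusted p up to 0.287: those without any 1 of the 4 untreated libraries, day 5 replicate 2 or 3 or day 3 replicate 3 of NUP98-DDX10, any 1 of the untreated or day 3 libraries of NUP98-NSD1, or NUP98-JARID1A day 3 replicate 2. None was called higher, by limma or edgeR (3 at an unadjusted p under 0.05), and DESeq2 called 1. Leaving out 1 library gave 0 to 2 called higher: Ltv1 without control replicate 1 or 3 or NUP98-NSD1 day 5 replicate 1 or 2 (adjusted p down to 0.0166), and Rrp1b without NUP98-NSD1 day 5 replicate 1 (0.0453). Outside the box H/ACA genes, none was called lower by limma, edgeR or DESeq2 (1 at an unadjusted p under 0.05). All of these counts are from fits over the 10 groups. Fitted within NUP98-DDX10 alone, limma called 4 genes lower at day 5 and more than that higher, with no share of all features given here.

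**Figure D2:**
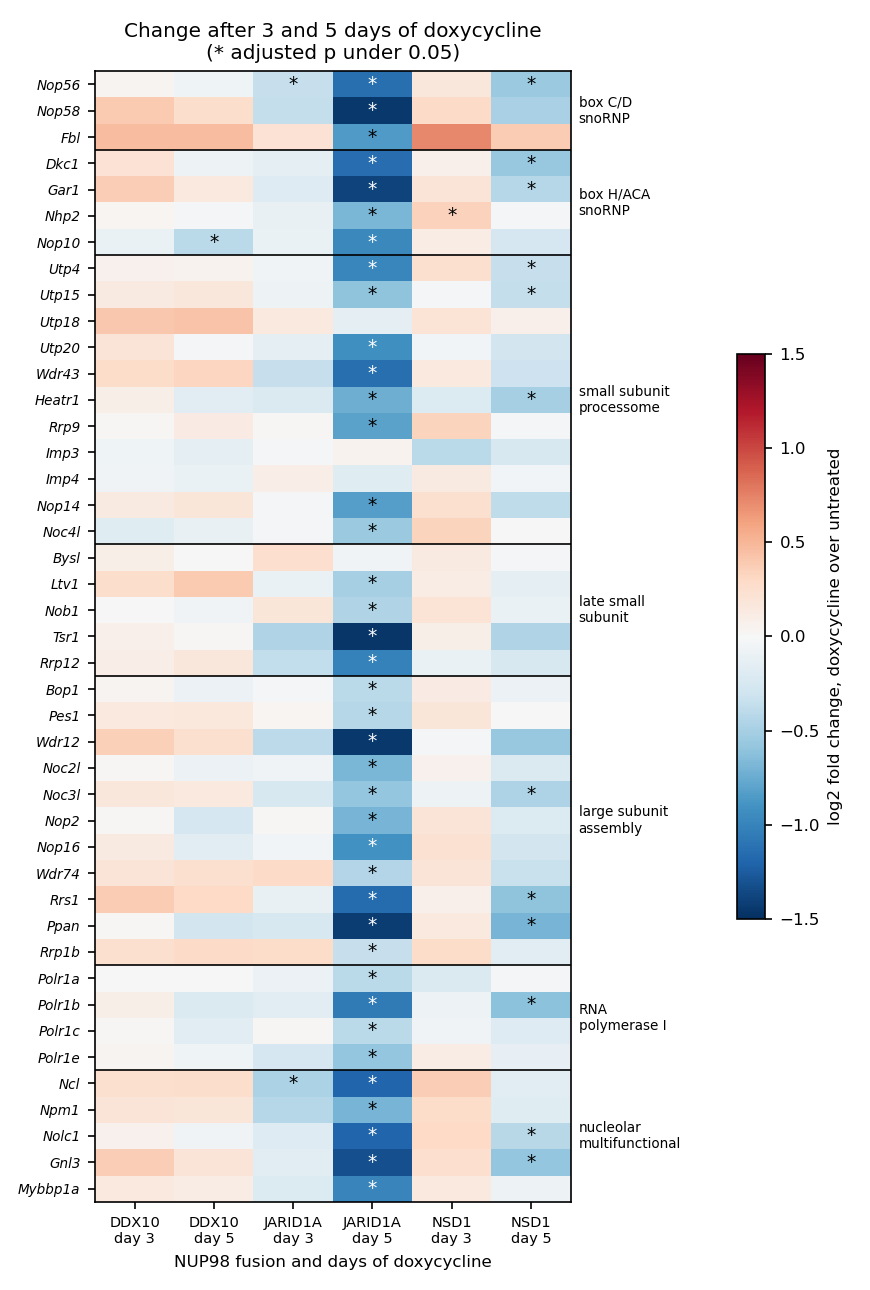
Log2 fold change of each of the 43 genes (rows, ordered by role) in 6 comparisons of doxycycline with untreated libraries (columns, days 3 and 5 of each fusion), with an asterisk where limma's adjusted p was under 0.05. The NUP98-JARID1A day 5 column holds 39 falls, NUP98-NSD1 day 5 holds 12 and NUP98-DDX10 day 5 holds 1.

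Box C/D snoRNPs are built on Nop56 and Nop58 and carry the methyltransferase fibrillarin, the product of Fbl. In NUP98-JARID1A cells 3 of 3 fell at day 5, with a median of -1.13, compared with 1 of 3 and -0.48 in NUP98-NSD1 cells and 0 of 3 and 0.27 in NUP98-DDX10 cells. Nop56 (Entrez gene 67134, chromosome 2, 130274367 to 130279313) had 274, 265 and 222 normalized counts in NUP98-JARID1A day 5 libraries and 673, 520.1, 543 and 499 in untreated ones. Every day 5 library was below every untreated one, a log2 change of -1.13 ± 0.12 (limma adjusted p 2e-08). In NUP98-NSD1 cells Nop56 had 462, 359 and 456 at day 5 and 632, 597, 639 and 621 untreated, again with no overlap, at -0.56 ± 0.12 (limma adjusted p 0.000923). In NUP98-DDX10 cells the values were 505, 512 and 562 at day 5 and 510.5, 591, 560.1 and 549 untreated, and the groups overlapped, at -0.07 with a 95% interval of -0.32 to 0.18. Nop58, which pairs with Nop56, changed by -1.45 ± 0.23 in NUP98-JARID1A cells (limma adjusted p 1.34e-05). It had 534, 328 and 183 normalized counts at day 5 and 1275, 731, 723 and 853 untreated there, and 1302, 1126 and 1244 at day 5 and 1719, 1626, 1847 and 1641 untreated in NUP98-NSD1 cells, where -0.48 ± 0.23 did not pass (limma adjusted p 0.138).

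Fbl was the box C/D gene with the largest p in the test of a difference between fusions. Fbl (Entrez gene 14113, chromosome 7, 28168893 to 28179269) had 18.2, 29.1 and 27.9 normalized counts at day 5 and 55.6, 26.2, 51.1 and 55.1 untreated in NUP98-JARID1A cells. The groups overlapped, with untreated replicate 1 low, and the log2 change was -0.85 ± 0.32 (limma adjusted p 0.0365). The call was lost, with adjusted p up to 0.152, without untreated replicate 2 or 3, the untreated library titled day 3, or day 5 replicate 1 or 3. In NUP98-NSD1 cells Fbl stood at 96.9, 98.0 and 113 at day 5 and 72.7, 86.3, 85.7 and 69.3 untreated. There every day 5 library was above every untreated one, yet the difference of 0.39 ± 0.32 was within the error (limma adjusted p 0.433). In NUP98-DDX10 cells it stood at 41.7, 44.1 and 45.1 at day 5 and 20.4, 29.1, 37.9 and 42.6 untreated, at 0.47 ± 0.32 (limma adjusted p 0.361). Fbl rests on few reads, and its annotated copy Fbl-ps2 may share reads with it, so its values are uncertain.

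Box H/ACA snoRNPs combine the pseudouridine synthase dyskerin, the product of Dkc1, with Gar1, Nhp2 and Nop10. At day 5, 4 of 4 fell in NUP98-JARID1A cells (median -1.05), 2 of 4 in NUP98-NSD1 cells (median -0.34) and 1 of 4 in NUP98-DDX10 cells (median -0.056). Gar1 (Entrez gene 68147, chromosome 3, 129824912 to 129831407) had 52.3, 59.3 and 47.9 normalized counts in NUP98-JARID1A day 5 libraries and 169, 110.2, 135 and 157 in untreated ones. Every day 5 value was well below the lowest untreated one, at -1.39 ± 0.15 (limma adjusted p 2.56e-08). In NUP98-NSD1 cells Gar1 stood at 170.1, 152 and 159 at day 5 and 217, 240.3, 225 and 185 untreated, also without overlap, at -0.43 ± 0.15 (limma adjusted p 0.0359). That call was lost, with adjusted p up to 0.123, without untreated replicate 1 or 2, the untreated library titled day 3, or day 5 replicate 2 or 3. In NUP98-DDX10 cells Gar1 had 166, 151 and 168 at day 5 and 108, 142, 182 and 161 untreated, and the groups overlapped, with an interval of -0.16 to 0.45 for the log2 change.

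Nop10 was the box H/ACA gene with the largest p in the test of a difference between fusions, and its day 5 mean was below its untreated mean in all 3. In NUP98-JARID1A cells Nop10 (Entrez gene 66181, chromosome 2, 112261926 to 112262898) had 689, 907 and 819 normalized counts at day 5 and 1695, 1152, 1824 and 1694 untreated, a log2 change of -0.97 ± 0.14 (limma adjusted p 2.74e-06). In NUP98-NSD1 cells it had 1172, 1179 and 1366 at day 5 and 1522, 1431, 1499.7 and 1450 untreated, with no overlap, and the change of -0.26 ± 0.14 did not pass (limma adjusted p 0.193). Dkc1, which lies on the X chromosome, changed by -1.14 ± 0.15 in NUP98-JARID1A, -0.57 ± 0.15 in NUP98-NSD1 and -0.08 ± 0.15 in NUP98-DDX10 cells (limma adjusted p 7.83e-07, 0.00582 and 0.776). Nhp2 changed by -0.68 ± 0.10 in NUP98-JARID1A cells (1.8e-06) and by -0.015 ± 0.10 and -0.032 ± 0.10 in the other 2, which did not pass.

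The small subunit processome binds the nascent transcript early, and 11 of the 43 genes encode parts of it. At day 5, 8 of 11 fell in NUP98-JARID1A cells (median -0.73), 3 of 11 in NUP98-NSD1 cells (Utp4, Utp15 and Heatr1, median -0.27) and 0 of 11 in NUP98-DDX10 cells (median 0.048). Utp4 and Heatr1 belong to the subcomplex that in yeast also acts in transcription of the ribosomal DNA. Utp4 (Entrez gene 21771, chromosome 8, 106893640 to 106923094) had 449, 422 and 367 normalized counts in NUP98-JARID1A day 5 libraries and 954, 731, 763 and 819 in untreated ones. The groups were far apart, at -0.98 ± 0.12 (limma adjusted p 2.01e-07). In NUP98-NSD1 cells Utp4 stood at 535, 384 and 468 at day 5 and 629, 578, 594 and 526 untreated. Replicate 1 of day 5 lay within the untreated range, and the change was -0.34 ± 0.12 (limma adjusted p 0.0354), a call lost with adjusted p up to 0.277 without untreated replicate 1 or 2, the untreated library titled day 3, or day 5 replicate 2 or 3. In NUP98-DDX10 cells it had 787, 870.2 and 828 at day 5 and 791, 776, 831 and 806 untreated, with overlap and an interval of -0.20 to 0.29.

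Imp4 and Imp3 act in yeast with U3 small nucleolar RNA, which pairs with the transcript, and neither was called in NUP98-JARID1A cells. Imp4 (Entrez gene 27993, chromosome 1, 34439829 to 34445747) had 861, 969 and 999 normalized counts in NUP98-JARID1A day 5 libraries and 1035, 1057, 1083 and 1086 in untreated ones. The groups did not overlap but lay close, at -0.18 ± 0.094 (limma adjusted p 0.134, and 0.0437 without control replicate 3). In NUP98-NSD1 cells Imp4 had 1005, 888 and 840.2 at day 5 and 912, 910.4, 999 and 915 untreated, and in NUP98-DDX10 cells 1260.3, 1422 and 1207 at day 5 and 1436, 1328, 1348 and 1440.1 untreated. Both pairs of groups overlapped. Imp3 changed by 0.054 ± 0.19 in NUP98-JARID1A cells (limma adjusted p 0.853). Of the other processome genes, Utp15 and Wdr43 belong to the same early subcomplex as Utp4, Rrp9 is a protein of the U3 snoRNP, and Nop14 and Noc4l act together in yeast. Their log2 changes in NUP98-JARID1A cells were -0.61 for Utp15, -1.13 for Wdr43, -0.73 for Heatr1, -0.80 for Rrp9, -0.83 for Nop14, -0.55 for Noc4l, -0.92 for Utp20 and -0.14 for Utp18. All of these but Utp18 were called. In NUP98-NSD1 cells the changes were -0.36 for Utp15 and -0.50 for Heatr1, both called, and -0.31 for Wdr43, -0.018 for Rrp9, -0.38 for Nop14, -0.012 for Noc4l, -0.27 for Utp20 and 0.078 for Utp18, none called. The Noc4l call in NUP98-JARID1A cells was lost without day 5 replicate 1 (adjusted p 0.0812), and the Utp15 call in NUP98-NSD1 cells, with adjusted p up to 0.105, without day 5 replicate 2 or 3 or the untreated library titled day 3.

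**Figure D3:**
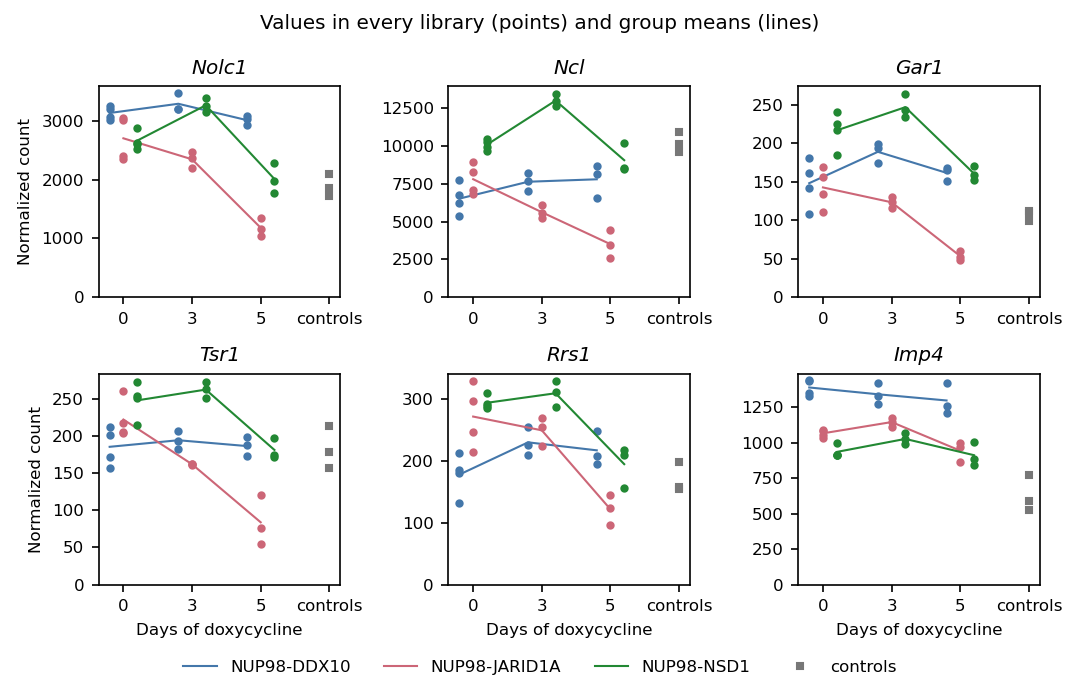
Normalized counts of Nolc1, Ncl, Gar1, Tsr1, Rrs1 and Imp4 in each library at 0, 3 and 5 days of doxycycline for each fusion and in the controls, with group means as lines. Gar1 in NUP98-JARID1A cells averaged 53.2 ± 5.74 at day 5, against 143 ± 25.8 untreated (SD, n = 3 and 4), while Imp4 averaged 943 ± 72.7 at day 5 and 1065 ± 23.9 untreated.

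Later factors of the small subunit act on the particle that leaves the nucleolus: Tsr1 is a GTPase-like factor, Ltv1 an export factor, Nob1 the endonuclease of the last cut, and Rrp12 and Bysl act in yeast (Enp1 for Bysl) in export and release. At day 5, 4 of 5 fell in NUP98-JARID1A cells (median -0.50), 0 of 5 in NUP98-NSD1 cells (-0.13, 1 at an unadjusted p under 0.05, 1 with edgeR and 1 with DESeq2) and 0 of 5 in NUP98-DDX10 cells (0.016). Tsr1 (Entrez gene 104662, chromosome 11, 74898080 to 74909340) showed the lowest log2 fold change of the 43 genes, with 120.4, 76.4 and 54.6 normalized counts in NUP98-JARID1A day 5 libraries and 261, 206, 205 and 217 in untreated ones. No day 5 library came near an untreated one, at -1.46 ± 0.17 (limma adjusted p 9.03e-08). In NUP98-NSD1 cells Tsr1 had 197, 174 and 172 at day 5 and 272, 215, 251 and 253 untreated, with no overlap, and just missed the threshold at -0.45 ± 0.17 (limma adjusted p 0.0515), though it passed in 6 of the 33 fits without 1 library (down to 0.0116). In NUP98-DDX10 cells it had 172, 188 and 198 at day 5 and 156, 201, 213 and 171 untreated, every day 5 value within the untreated range. Bysl (Entrez gene 53414, chromosome 17, 47599331 to 47611492) had 466, 650.0 and 617 at day 5 and 522, 556, 681 and 626 untreated in NUP98-JARID1A cells, with overlap, at -0.053 ± 0.13 (limma adjusted p 0.785). The other 3 fell in NUP98-JARID1A cells, by log2 changes of -1.02 for Rrp12, -0.45 for Nob1 and -0.50 for Ltv1, and were not called in NUP98-NSD1 cells, at -0.24 for Rrp12, -0.10 for Nob1 and -0.13 for Ltv1.

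Large subunit assembly takes in the complex of Pes1, Bop1 and Wdr12, the factor Rrs1, Ppan (Ssf1 in yeast), and Nop2, a methyltransferase of ribosomal RNA. At day 5, 11 of 11 fell in NUP98-JARID1A cells (median -0.68), 3 of 11 in NUP98-NSD1 cells (Rrs1, Ppan and Noc3l, median -0.28) and 0 of 11 in NUP98-DDX10 cells (median 0.15). Rrs1 (Entrez gene 59014, chromosome 1, 9545408 to 9547455) had 145, 125 and 95.8 normalized counts in NUP98-JARID1A day 5 libraries and 329.6, 215, 247 and 297 in untreated ones. The groups did not overlap, at -1.15 ± 0.17 (limma adjusted p 2.65e-06). In NUP98-NSD1 cells Rrs1 had 209.9, 157 and 218 at day 5 and 293, 289, 311 and 286 untreated, again apart, at -0.61 ± 0.17 (limma adjusted p 0.00709, and 0.0791 without day 5 replicate 2). In NUP98-DDX10 cells it had 195, 209 and 248 at day 5 and 133, 186, 214 and 181 untreated, but the groups overlapped and 0.30 ± 0.17 did not pass (limma adjusted p 0.235).

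Ppan showed the lowest log2 fold change in NUP98-NSD1 cells. Ppan (Entrez gene 235036, chromosome 9, 20888175 to 20892179) had 222, 170.3 and 209.6 normalized counts at day 5 and 327, 326, 351 and 296 untreated there, at -0.70 ± 0.19 (limma adjusted p 0.00605, and 0.0515 without day 5 replicate 2, the lowest library). In NUP98-JARID1A cells it had 173, 211 and 182 at day 5 and 482, 442, 596 and 517 untreated, at -1.43 ± 0.19 (limma adjusted p 6.68e-07). Bop1 had the largest p of its role in the test of a difference between fusions. Bop1 (Entrez gene 12181, chromosome 15, 76452988 to 76477249) had 649, 924 and 968 at day 5 and 859, 1121, 1269.9 and 1217 untreated in NUP98-JARID1A cells. The groups overlapped, and the change of -0.40 ± 0.16 passed narrowly (limma adjusted p 0.0481), a call lost in 21 of the 33 fits without 1 library, with adjusted p up to 0.302. The partners of Bop1 fell there too, at -0.42 for Pes1 and -1.45 for Wdr12. The other large subunit genes changed by -0.70 for Nop2, -0.68 for Noc2l, -0.58 for Noc3l, -0.91 for Nop16, -0.44 for Wdr74 and -0.35 for Rrp1b in NUP98-JARID1A cells, all called. In NUP98-NSD1 cells Noc3l changed by -0.46 ± 0.15 (limma adjusted p 0.0255), and the values without a call were -0.0071 for Pes1, -0.57 for Wdr12, -0.21 for Nop2, -0.22 for Noc2l, -0.28 for Nop16, -0.34 for Wdr74, -0.15 for Rrp1b and -0.085 for Bop1. The Noc3l call was lost, with adjusted p up to 0.0981, without day 5 replicate 2 or 3, untreated replicate 2 or 3 or the untreated library titled day 3. In NUP98-JARID1A cells the calls of Wdr74 and Rrp1b were lost, with adjusted p up to 0.173 and 0.107, without the untreated library titled day 3, day 5 replicate 3, or day 5 replicate 1 (Wdr74) or 2 (Rrp1b).

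RNA polymerase I was represented by its catalytic core subunits Polr1a and Polr1b, by Polr1c, which is shared with RNA polymerase III, and by Polr1e, a subunit of the initiation heterodimer. At day 5, 4 of 4 fell in NUP98-JARID1A cells (median -0.49), 1 of 4 in NUP98-NSD1 cells (Polr1b, median -0.16) and 0 of 4 in NUP98-DDX10 cells (median -0.12). Polr1e (Entrez gene 64424, chromosome 4, 45018609 to 45034279) had 317, 289 and 248 normalized counts in NUP98-JARID1A day 5 libraries and 493, 425, 369 and 416 in untreated ones. The groups did not overlap, at -0.58 ± 0.11 (limma adjusted p 8.14e-05). Polr1c (Entrez gene 20016, chromosome 17, 46243920 to 46248045) had 169, 171 and 165 at day 5 and 249, 211, 233 and 205 untreated, at -0.41 ± 0.12 (limma adjusted p 0.00788). In NUP98-NSD1 cells these 2 genes changed by -0.13 and -0.20, and in NUP98-DDX10 cells by -0.067 and -0.17, none of which passed. The core subunits changed by -0.40 ± 0.11 for Polr1a and -1.06 ± 0.17 for Polr1b in NUP98-JARID1A cells (limma adjusted p 0.00498 and 1.66e-05), and by -0.021 ± 0.11 and -0.62 ± 0.17 in NUP98-NSD1 cells (0.931 and 0.00823). The Polr1b call in NUP98-NSD1 cells was lost without day 5 replicate 2 (adjusted p 0.0761).

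The remaining 5 genes encode abundant nucleolar proteins with several roles: nucleolin (Ncl), nucleophosmin (Npm1), the snoRNP chaperone Nolc1 (Nopp140), nucleostemin (Gnl3) and Mybbp1a. At day 5, 5 of 5 fell in NUP98-JARID1A cells (median -1.18), 2 of 5 in NUP98-NSD1 cells (Nolc1 and Gnl3, median -0.18) and 0 of 5 in NUP98-DDX10 cells (median 0.18). Nolc1 (Entrez gene 70769, chromosome 19, 46075847 to 46085543) had 1341, 1153 and 1047 normalized counts in NUP98-JARID1A day 5 libraries and 3027, 2400.3, 2354 and 3046 in untreated ones. The groups were far apart, at -1.19 ± 0.10 (limma adjusted p 3.11e-10). In NUP98-NSD1 cells Nolc1 had 2286, 1778 and 1973 at day 5 and 2634, 2616, 2888 and 2528 untreated, without overlap, at -0.41 ± 0.10 (limma adjusted p 0.00267). In NUP98-DDX10 cells it had 3033, 2930.1 and 3085 at day 5 and 3011, 3077, 3212 and 3254 untreated, with overlap and an interval of -0.26 to 0.15.

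Ncl fell in NUP98-JARID1A cells, where Ncl (Entrez gene 17975, chromosome 1, 86344719 to 86359455) had 4458, 3442 and 2599 normalized counts at day 5 and 8960, 6861, 7110.2 and 8307 untreated, at -1.18 ± 0.14 (limma adjusted p 9.97e-08). In NUP98-NSD1 cells it had 10182, 8460.3 and 8566 at day 5 and 10473, 9966, 10290 and 9661 untreated, and in NUP98-DDX10 cells 8156, 6581 and 8674 at day 5 and 5378, 6738, 7733 and 6242 untreated. Neither change passed, at -0.16 ± 0.14 and 0.26 ± 0.14. Npm1 (Entrez gene 18148, chromosome 11, 33152498 to 33164142) had 1528, 767 and 546 at day 5 and 1892, 1364, 1092 and 1342 untreated in NUP98-JARID1A cells. The groups overlapped, and -0.69 ± 0.21 passed (limma adjusted p 0.0106) but not without day 5 replicate 2 or 3 or the untreated library titled day 3, with adjusted p up to 0.184. Npm1 has near-identical copies in the genome that may share its reads. Gnl3 changed by -1.31 ± 0.18 in NUP98-JARID1A and -0.59 ± 0.18 in NUP98-NSD1 cells (limma adjusted p 9.32e-07 and 0.0139), and Mybbp1a by -0.99 ± 0.13 and -0.081 ± 0.13 (6.14e-07 and 0.72). The Gnl3 call in NUP98-NSD1 cells was lost without day 5 replicate 2 (adjusted p 0.126).

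To test whether the day 5 response itself differed between fusions, the 3 doxycycline effects were compared within the same fit. limma's F-test called 31 of the 43 genes, with 26.0% of all features called, and 24 of the 31 were called in each of the 33 fits without 1 library. The genes with the smallest p in each role were Nop56 (adjusted p 0.000164), Gar1 (2.15e-05), Utp4 (0.000201), Tsr1 (0.000154), Rrs1 (0.000164), Polr1e (0.0205) and Nolc1 (4.18e-06). By role, the test called 3 of 3 box C/D genes, 4 of 4 box H/ACA genes, 5 of 11 processome genes, 3 of 5 later small subunit genes, 10 of 11 large subunit genes, 2 of 4 polymerase genes and 4 of 5 multifunctional genes. Of these, Fbl (adjusted p 0.0485) was lost in 26 fits, Nop10 (0.017) without NUP98-JARID1A day 5 replicate 1, and Polr1e without NUP98-JARID1A day 5 replicate 3 or its untreated library titled day 3. Those at the other end of each role, Imp4, Bysl, Bop1, Polr1c and Npm1, had adjusted p of 0.703, 0.981, 0.451, 0.479 and 0.0823. Npm1 passed without NUP98-JARID1A day 5 replicate 1 or its untreated replicate 2, with adjusted p down to 0.000634.

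In pairs, the day 5 log2 change in NUP98-JARID1A cells was lower than in NUP98-DDX10 cells for 34 of the 43 genes, with a median difference of -0.84 and 11.2% of all features called lower. Gar1 differed by -1.54 ± 0.21 (limma adjusted p 1.02e-05) and Nolc1 by -1.14 ± 0.14 (2.5e-06). Leaving out 1 library gave 24 to 36 genes, with the 24 without NUP98-JARID1A day 5 replicate 3. Against NUP98-NSD1 cells, 16 genes changed further down in NUP98-JARID1A cells (28 at an unadjusted p under 0.05, and 6.00% of all features). They were Ncl, Mybbp1a and Nolc1 among the multifunctional genes, all but Dkc1 of box H/ACA, Nop56, Utp4, Utp20, Wdr43, Tsr1, Rrp12, Nop16, Pes1, Nop2 and Polr1e. Ncl differed by -1.02 ± 0.19 (limma adjusted p 0.000701). Without NUP98-NSD1 day 5 replicate 1, 7 genes were called.

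The NUP98-NSD1 and NUP98-DDX10 effects were harder to tell apart. By limma, 2 genes were lower in NUP98-NSD1 cells, Rrs1 at -0.90 ± 0.23 (adjusted p 0.0144) and Utp15 at -0.53 ± 0.17 (0.0466), with 2.82% of all features called lower. At an unadjusted p under 0.05 there were 17, edgeR called 3 and DESeq2 5. The count was 0 without NUP98-NSD1 day 5 replicate 2 or NUP98-DDX10 day 5 replicate 3, 9 without NUP98-NSD1 day 5 replicate 1, 8 without control replicate 3 and 5 without NUP98-JARID1A day 5 replicate 1. In the other fits without 1 library it was 1 to 3. All 3 pairs share their untreated libraries with the comparisons above, and each pair shares 1 fusion with each of the others.

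At day 3 few of the genes had changed. In NUP98-JARID1A cells limma called Ncl and Nop56 lower (2 genes, median -0.10 over the 43), edgeR called 1 gene and DESeq2 3, and 5 passed at an unadjusted p under 0.05, with 7.62% of all features called lower, so limma's share was below the background. Ncl had 5209.5, 5546 and 6105 normalized counts at day 3 and 8960, 6861, 7110.2 and 8307 untreated, with no overlap, at -0.47 ± 0.14 (limma adjusted p 0.0192, and up to 0.0968 without day 3 replicate 1 or 2 or the untreated library titled day 3). Nop56 had 413, 439.9 and 455 at day 3 and 673, 520.1, 543 and 499 untreated, at -0.35 ± 0.12 (limma adjusted p 0.0466), a call lost in 21 of the 33 fits without 1 library. Without control replicate 3 there were 4 calls. In NUP98-NSD1 cells limma called Nhp2 alone higher, with 1661, 1628 and 1635 at day 3 and 1216, 1344, 1395 and 1237 untreated, at 0.34 ± 0.10 (limma adjusted p 0.0227), a share of the 43 below the 4.55% of all features called higher. The call was lost, with adjusted p up to 0.0833, without any 1 of the 3 day 3 libraries, untreated replicate 3 or the untreated library titled day 3, and 3 genes were called without control replicate 3 or NUP98-JARID1A day 5 replicate 1 or 3, and 2 without control replicate 1 or NUP98-NSD1 day 5 replicate 1. The median over the 43 genes was 0.15, and for 19 genes every day 3 library lay above every untreated one, against 19.7% of all features.

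In NUP98-DDX10 cells no gene was called at day 3 by limma, edgeR or DESeq2 (4 higher at an unadjusted p under 0.05), and 1.10% of all features were called. The median was 0.10, and 39 of the 43 log2 changes were above 0. The day 3 response differed between fusions for Ncl alone by limma's F-test (adjusted p 0.0116, with 7.08% of all features called). Its log2 changes at day 3 were -0.47 in NUP98-JARID1A, 0.37 in NUP98-NSD1 and 0.24 in NUP98-DDX10 cells. Without control replicate 3, 3 genes were called, and 2 without NUP98-NSD1 day 5 replicate 1, NUP98-DDX10 untreated replicate 2, NUP98-JARID1A day 5 replicate 1 or NUP98-JARID1A untreated replicate 1 or 2.

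Between day 3 and day 5 falls were called in NUP98-JARID1A and NUP98-NSD1 cells. In NUP98-JARID1A cells 35 of 43 were lower at day 5 than at day 3 (median -0.72), with 10.4% of all features called lower. Gar1 had 52.3, 59.3 and 47.9 normalized counts at day 5 and 116, 123 and 129.8 at day 3, at -1.20 ± 0.16 (limma adjusted p 7.66e-06). The 8 without a call were Bop1, Npm1, Polr1a, Bysl, Noc3l, Imp3, Utp18 and Ltv1. In NUP98-NSD1 cells 16 fell (median -0.37, 28 at an unadjusted p under 0.05), with 4.95% of all features called lower. Ppan had 222, 170.3 and 209.6 at day 5 and 358, 365 and 356 at day 3, at -0.85 ± 0.20 (limma adjusted p 0.00626, and 0.0593 without day 5 replicate 2). The count was 2 without day 5 replicate 2, 10 without day 5 replicate 3 or day 3 replicate 2, and 9 without day 3 replicate 1 or 3. In NUP98-DDX10 cells none was called by limma, edgeR or DESeq2 (3 lower at an unadjusted p under 0.05), with 0.930% of all features called. These comparisons share the day 3 and day 5 libraries with those above.

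Before doxycycline, most of the genes were higher in the leukemias than in the control libraries. The number higher was 30 of 43 in untreated NUP98-JARID1A cells (median 0.74), 36 in NUP98-NSD1 cells (0.76) and 31 in NUP98-DDX10 cells (0.75). Of all features, 31.4%, 29.7% and 30.6% were called higher in the same order, with medians of -0.11, -0.055 and -0.11. Without control replicate 3 the counts were 30, 34 and 30. The 3 comparisons share the controls. Nhp2 had 1793, 1842, 1947 and 1872 normalized counts in untreated NUP98-JARID1A libraries and 494, 536 and 583 in controls, at 1.79 ± 0.10 (limma adjusted p 3.15e-15). Nop16, a large subunit factor, had 607, 478, 613 and 487 in untreated NUP98-NSD1 and 174, 154 and 206 in controls, at 1.61 ± 0.12 (4.57e-12). In untreated NUP98-DDX10 cells Nop16 had 638, 728, 643 and 697, at 1.93 ± 0.12 (1.2e-13). In each of these pairs every leukemia library lay above every control.

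A few genes went the other way. Nop58 had 1275, 731, 723 and 853 normalized counts in untreated NUP98-JARID1A cells, 632, 744, 1076 and 816 in NUP98-DDX10 cells and 1798, 1502 and 1273 in controls. It differed from controls by -0.79 ± 0.23 and -0.91 ± 0.23 on the log2 scale (limma adjusted p 0.00374 and 0.00111). Ncl was lower in both of these too, at -0.39 ± 0.14 and -0.66 ± 0.14 (limma adjusted p 0.0128 and 0.000133), and Nop14 in NUP98-JARID1A cells at -0.39 ± 0.15 (0.0249). The Nop14 call was lost without control replicate 3 or untreated NUP98-JARID1A replicate 1 (adjusted p up to 0.381). The Ncl call in NUP98-JARID1A cells was lost without control replicate 1 (adjusted p 0.0555). In NUP98-NSD1 cells the 1 gene lower than in controls was Polr1a, with 982, 1131, 1215 and 1046 normalized counts and 1416, 1742 and 1148 in controls, at -0.38 ± 0.11 (limma adjusted p 0.0048, and 0.088 without control replicate 2). The share of all features lower than controls was 38.0%, 34.9% and 37.9% for NUP98-JARID1A, NUP98-NSD1 and NUP98-DDX10. Without control replicate 3 the number lower in NUP98-DDX10 cells was 4, with Fbl and Polr1a called as well as Nop58 and Ncl. Controls and leukemias also differed in cell markers. The 11 mature neutrophil markers summed to 205347 to 259037, 43017 to 93928 and 51754 to 68516 in the untreated NUP98-JARID1A, NUP98-NSD1 and NUP98-DDX10 libraries, and to 275211 to 3447533 in controls. B cell markers (9) summed to 1038 to 1597, 1713 to 2002 and 1764 to 1948 and to 22480 to 97401 in controls. The part of these cells in the differences was not tested.

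Among the untreated leukemias genes were called in both directions. Between NUP98-JARID1A and NUP98-DDX10, 7 were higher and 5 lower in NUP98-JARID1A (21.6% and 20.1% of all features), both shares of the 43 below those of all features. Rrp12 had 449, 483, 594 and 670.5 normalized counts in NUP98-JARID1A and 287, 291, 290.2 and 323 in NUP98-DDX10 cells, at 0.86 ± 0.14 (limma adjusted p 1.21e-05), and Polr1c 249, 211, 233 and 205 and 308, 411, 414 and 348, at -0.71 ± 0.11 (9.76e-06). The number lower was 8 without control replicate 3, and 3 without any 1 of replicates 1 to 3 of untreated NUP98-DDX10 or replicate 1 or 2 of untreated NUP98-JARID1A. Between NUP98-NSD1 and NUP98-DDX10, 9 were higher and 13 lower in NUP98-NSD1 (21.2% and 20.7% of all features), the first share near that of all features and the second above it. Fbl had 72.7, 86.3, 85.7 and 69.3 in NUP98-NSD1 and 20.4, 29.1, 37.9 and 42.6 in NUP98-DDX10 cells, at 1.29 ± 0.30 (limma adjusted p 0.00112), and Ppan 327, 326, 351 and 296 and 621, 531, 560.1 and 645, at -0.86 ± 0.17 (0.000274). Between NUP98-NSD1 and NUP98-JARID1A, 10 were higher and 17 lower in NUP98-NSD1, with 29.3% of all features higher and 29.3% lower, so that the share of the 43 was below that of all features for higher and above it for lower. Nop58 had 1719, 1626, 1847 and 1641 in NUP98-NSD1 and 1275, 731, 723 and 853 in NUP98-JARID1A cells, at 0.97 ± 0.22 (limma adjusted p 0.000391). Rrp12 had 240.3, 309.7, 279.6 and 241 in NUP98-NSD1 cells and the NUP98-JARID1A values above, at -1.02 ± 0.14 (5.67e-07). The 3 comparisons share libraries pairwise.

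Some of these genes carry small nucleolar RNAs (snoRNAs) in their introns, which are released when the intron is removed. A gene was counted here as a host where an annotated snoRNA gene lay within its bounds, with no check of strand or intron. By this rule and the RefSeq annotation of GRCm38.p6, 8 of the 43 genes (18.6%) host 21 annotated snoRNAs: Nop56, Nop58, Dkc1, Wdr43, Tsr1, Ppan, Ncl and Gnl3. Among genes kept in the test with an annotation, 316 of 12667 (2.49%) host any. At day 5 in NUP98-JARID1A cells the 8 hosts had a median log2 change of -1.25, with a range of -1.46 to -1.13, and the other 35 genes -0.68, with a range of -1.45 to 0.054. In NUP98-NSD1 cells the medians were -0.52 for hosts and -0.21 for the others, and in NUP98-DDX10 cells 0.10 and -0.005. Over all kept genes the NUP98-JARID1A day 5 medians were -0.17 for hosts and -0.013 for genes that host none. In untreated NUP98-JARID1A cells against controls, hosts had a median of 0.25 and the other members 0.86. This split was made by annotation, and these medians are a description with no test. The libraries were made from poly-A RNA, so the levels are those of the host messages and not of the snoRNAs.

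**Figure D4:**
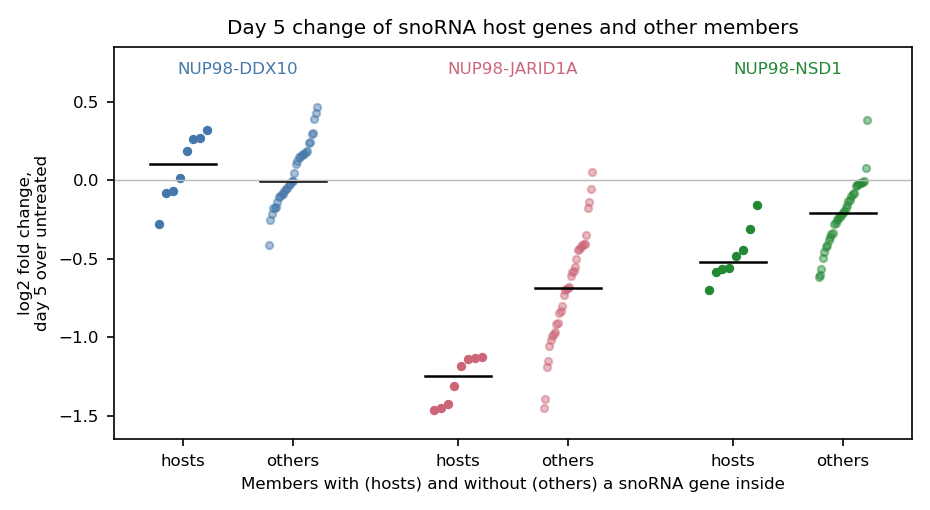
Day 5 log2 fold change of the 8 genes with an annotated snoRNA gene within their bounds (hosts) and of the other 35, one point per gene, in each fusion. In NUP98-JARID1A cells the hosts run between -1.46 and -1.13, and the other genes between -1.45 and 0.054.

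The promoters of the genes were searched for CACGTG, the E-box that Myc binds with its partner Max, a motif that reads the same on both strands. RefSeq windows of 300 bases, 250 before the start site and 50 after it, were at hand for 38 of the 43 genes (42 windows). CACGTG was in a window of 10 of the 38 (26.3%), of 13 of 65 other ribosome biogenesis genes (20%), of 6 of 58 ribosomal protein genes (10.3%) and of 1185 of 10158 kept genes (11.7%). It stood in 2349 of all 32851 windows in the table (7.15%). The windows of 3 genes described above are shown, 2 that fell in NUP98-JARID1A cells (Tsr1 and Utp4) and 1 that was not called (Imp4), from the plus strand of GRCm38, with CACGTG in capitals. They lie at chr11:74897830-74898129, chr8:106893390-106893689 and chr1:34439579-34439878.
Tsr1: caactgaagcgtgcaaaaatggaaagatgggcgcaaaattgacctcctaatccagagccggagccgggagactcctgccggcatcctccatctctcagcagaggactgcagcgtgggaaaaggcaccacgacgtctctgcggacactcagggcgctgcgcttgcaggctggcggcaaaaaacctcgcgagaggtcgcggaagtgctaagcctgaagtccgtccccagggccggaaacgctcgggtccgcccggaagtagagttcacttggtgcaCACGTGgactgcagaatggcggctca
Utp4: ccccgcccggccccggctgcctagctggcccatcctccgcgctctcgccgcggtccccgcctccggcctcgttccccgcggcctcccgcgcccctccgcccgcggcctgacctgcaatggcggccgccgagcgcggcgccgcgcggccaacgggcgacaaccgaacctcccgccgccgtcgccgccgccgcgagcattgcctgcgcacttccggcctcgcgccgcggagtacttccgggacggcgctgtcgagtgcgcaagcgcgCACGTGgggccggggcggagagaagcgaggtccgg
Imp4: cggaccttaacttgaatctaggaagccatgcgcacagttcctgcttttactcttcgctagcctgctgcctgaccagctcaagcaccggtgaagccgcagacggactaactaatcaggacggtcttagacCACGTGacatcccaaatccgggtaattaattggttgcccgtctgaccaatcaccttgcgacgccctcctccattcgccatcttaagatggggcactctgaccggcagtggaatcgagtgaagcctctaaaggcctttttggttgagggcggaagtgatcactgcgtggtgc

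The first base of CACGTG lies 25 bases from the start site in Tsr1 and 16 in Utp4, both after it, and at -121 in Imp4, before it. The 10 genes with the motif had a median day 5 log2 change of -0.81 in NUP98-JARID1A cells and the 28 without it -0.77. In NUP98-NSD1 cells the medians were -0.17 and -0.31. A match of letters is a description of the window and does not show binding.

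Myc itself fell in all 3 leukemias. It averaged 1349.9 ± 213 normalized counts at day 5 and 3760.1 ± 491 untreated in NUP98-JARID1A cells, at -1.48 ± 0.14 (limma adjusted p 1.92e-09). In NUP98-NSD1 cells it averaged 1390.3 ± 338 and 2667 ± 257, at -0.96 ± 0.14 (4.83e-06), and in NUP98-DDX10 cells 2254 ± 156 and 3597 ± 452, at -0.67 ± 0.14 (0.0013; SD, n = 3 and 4). Controls averaged 1290.3 ± 47.2 (SD, n = 3). The size of the Myc fall differed between fusions (limma F-test, adjusted p 0.00784). The part of Myc in the changes of the 43 genes was not tested.

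Further genes of the pathway were counted from a list of 77 others. In NUP98-JARID1A cells 57 of 77 fell at day 5 (median -0.54), in NUP98-NSD1 cells 9 fell and 1 rose (-0.18), and in NUP98-DDX10 cells 3 fell and 5 rose (0.13). Beside the shares of all features given above, the NUP98-JARID1A count is above the background, the NUP98-NSD1 falls and the NUP98-DDX10 rises are near it, and the NUP98-DDX10 falls are below it. Rcl1, a cleavage factor of the processome, changed by -1.31 ± 0.14 in NUP98-JARID1A and -0.58 ± 0.14 in NUP98-NSD1 cells (limma adjusted p 3.78e-08 and 0.0031). Of 13 other genes of RNA polymerase I transcription, 6 fell in NUP98-JARID1A cells (median -0.25), among them Rrn3, the factor that recruits the polymerase, at -0.45 ± 0.10 (limma adjusted p 0.00103). Their median was -0.079 in NUP98-NSD1 cells, where 1 fell, and 0.042 in NUP98-DDX10 cells. The 77 cytosolic ribosomal protein genes, whose products the factors above assemble, had a median log2 change of -0.29 in NUP98-JARID1A cells, where 16 fell, a share near the 21.2% of all features called lower. Their median was -0.16 in NUP98-NSD1 cells and 0.045 in NUP98-DDX10 cells, where 1 rose.

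The doxycycline libraries in which these genes fell also differed in markers of cell type and maturity. In NUP98-JARID1A cells 19 of 21 monocyte and macrophage markers rose at day 5 (median 2.25) and 6 of 11 mature neutrophil markers rose, their sum being 630336 to 1083995 normalized counts at day 5 and 205347 to 259037 untreated. The monocyte sum was 188713 to 217067 at day 5 and 74017 to 96679.6 untreated. Primary granule genes, which mark promyelocytes, fell for 4 of 8, with sums of 31806 to 47528 at day 5 and 77218 to 108892 untreated. T and NK cell markers summed to 19.1 to 31.2 at day 5 and 667 to 955 untreated. In NUP98-NSD1 cells 15 of 21 monocyte markers and 7 of 11 neutrophil markers rose and 7 of 8 primary granule genes fell. In NUP98-DDX10 cells 4 monocyte markers rose and 1 fell, and 3 primary granule genes fell. Of all features, 21.2%, 11.9% and 8.64% were called lower in NUP98-JARID1A, NUP98-NSD1 and NUP98-DDX10 cells, and 6.49% higher in NUP98-DDX10 cells. The shares called higher in NUP98-JARID1A and NUP98-NSD1 cells are not given here, so the counts of rising markers there have no background beside them. B cell markers summed to 1378 to 1493 at day 5 and 1038 to 1597 untreated in NUP98-JARID1A cells, and erythroid markers to 359 to 649 and 669 to 1049. Cd3e and the 4 hemoglobin genes of the list were at 0 in every library of both groups. Of the 11 T and NK cell markers, 7 were above 0 in the untreated libraries. Hbb-bt, Hba-a1 and Hba-a2 were at 0 in every control library too, where erythroid markers summed to 7561 to 73281. Zeros of these 3 hemoglobin genes therefore do not show that erythroid cells were absent. Hbb-bs, the other hemoglobin gene of the list, was not at 0 in every control library. The part of these cells in the fall of ribosome biogenesis genes was not tested.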

How the data were processed

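RNA of 33 libraries in 10 groups was analysed; the 2 ChIP samples of the series were not analysed here. Per the labels' protocols, a facility made stranded poly-A libraries. Per the submitters' processing notes, STAR, SAMtools, featureCounts and DESeq2 were among the tools and GRCm38 and mm10 among the builds, with no versions given. Whether counting used strand is not given in the sources used here.

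The deposited table holds normalized counts, a signal of reads per gene divided by a size factor per library, as the authors deposited it. Whole reads were recovered from its steps: 100% of values lay within 0.01 reads of a whole number. This gives 12043487 to 28903870 reads per library. PCR copies cannot be told from molecules, so depth describes counting error only. The filter on low values, 10 or more in 3 or more libraries, kept 12687 of 24462 features, of which 12682 are genes and 5 are transgene constructs.

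Values were put on the log2(value + 1) scale and compared with limma 3.58.1 (R 4.3.3) with a mean-variance trend, in 1 fit over the 10 groups, with Benjamini-Hochberg adjustment over all features kept at a threshold of 0.05. A fold change on that scale understates the change of low genes. Differences of effects between fusions were contrasts in the same fit. The script was tested on simulated data. Alternatives were a pseudocount of 5, no filter, a mean of at least 100, TMM scaling, quantile normalization, edgeR 4.0.16 and DESeq2 1.42.0 on the recovered reads, a fit within 1 fusion, untreated libraries titled day 5 only, a replicate block, and leaving out each of the 33 libraries. The check of replicate numbers found no pairing when pooled over all groups. Day 5 and untreated libraries of the same number did correlate positively in NUP98-JARID1A and NUP98-NSD1 cells.

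The members and lists were chosen with earlier results of these data known. Genes given in full are, in each role class, those with the smallest and the largest p in the F-test of the day 5 effect, and in each comparison with doxycycline, with controls or between untreated fusions, those with the largest called rise and fall. Libraries of a group differed by more than counting noise (chi-square per degree of freedom 6.457 to 360.7), so none held the counts of another deposited again; whether any share an animal or an RNA sample is not given. Promoter sequences and snoRNA positions are from RefSeq for GRCm38.p6.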

Additional observations from a re-analysis of the deposited data

Results flagged for a closer look

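In groups of 4 untreated libraries, 1 library lay far from the other 3 for 5 of the genes given in full, by the ratio of its gap to the range of the group. Chance alone gives such a gap in about 1 in 20 groups. Every gene given in full was screened in the untreated group of each fusion, so some such gaps would arise by chance. Fbl had 26.19 normalized counts in NUP98-JARID1A untreated replicate 1, against 51.13 to 55.6 in the others (ratio 0.848). Nop10 had 1425 in the NUP98-DDX10 untreated library titled day 3, against 1226 to 1242 (0.923). Imp4 had 998.6 in NUP98-NSD1 untreated replicate 2, against 910.4 to 915.4 (0.943). Nhp2 had 1453 in NUP98-DDX10 untreated replicate 2, against 1746 to 1797 (0.852). Rrp12 had 322.7 in NUP98-DDX10 untreated replicate 3, against 286.9 to 290.7 (0.893).

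The day 5 effect of doxycycline differed between the fusions for 31 of the 43 genes by limma's F-test. Among the genes given in full, the adjusted p was 4.18e-06 for Nolc1, 1.34e-05 for Ncl, 2.15e-05 for Gar1, 0.000154 for Tsr1, 0.000164 for Nop56, 0.000164 for Rrs1, 0.000201 for Utp4, 0.000514 for Rrp12, 0.000535 for Nhp2, 0.0012 for Nop58, 0.00378 for Nop16, 0.00601 for Ppan, 0.017 for Nop10, 0.0205 for Polr1e and 0.0485 for Fbl. At day 3 the effect differed for Ncl, with an adjusted p of 0.0116. The day 5 log2 changes behind these tests were lowest in NUP98-JARID1A cells for each of these genes.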

How the results depend on the processing

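None of the 322 called log2 changes of the 43 genes reversed under the alternatives run. Of 860 tests of these genes (20 comparisons), 101 of 354 calls were lost in at least 1 fit without 1 library, and 95 of 506 tests without a call gained one. The median over the 43 genes was compared under the other alternatives, and not in the fits without 1 library. It changed sign once, for untreated NUP98-NSD1 against NUP98-DDX10, at 0.042 with the replicate block and -0.018 without it. For the 33 tests by which genes were chosen to be given in full, 1319 of 1391 alternative values stayed on their side of the threshold, 70 lost the call and 2 gained one. Counts that moved by over 1.5 times, all of genes out of 43, follow. Fitted within 1 fusion, NUP98-DDX10 had 4 lower and 7 higher at day 5, 1 higher at day 3 and 3 lower between days, NUP98-JARID1A day 3 had 0 lower, and NUP98-NSD1 had 19 lower and 1 higher at day 5, 6 higher and 1 lower at day 3 and 25 lower between days. With untreated libraries titled day 5 only, the counts were 0 lower for NUP98-DDX10 day 5, 0 lower for NUP98-JARID1A day 3, 0 higher for NUP98-NSD1 day 3, 1 for the NUP98-NSD1 minus NUP98-DDX10 effect and 10 for NUP98-JARID1A minus NUP98-NSD1. With no filter, NUP98-DDX10 day 5 had 0, NUP98-JARID1A day 3 had 1 and NUP98-NSD1 minus NUP98-DDX10 had 1. NUP98-JARID1A day 3 had 1 under TMM scaling and 1 under edgeR. NUP98-NSD1 minus NUP98-DDX10 had 4 under quantile normalization, where untreated NUP98-NSD1 had 0 lower than controls, and 5 under DESeq2, and DESeq2 gave 1 higher for NUP98-DDX10 day 5, 2 higher for NUP98-NSD1 day 3 and 3 for the day 3 difference between fusions. The cause of these shifts was not tested, and the share of all features called under these alternatives is not given here. Scaling moved the median of all features against controls by up to 0.29 on the log2 scale under quantile normalization, and the medians of the 43 genes stayed between 0.81 and 0.94 under it and TMM.

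With the replicate number as a block, calls fell to 0 for NUP98-DDX10 day 5 and NUP98-JARID1A day 3, 1 for NUP98-NSD1 minus NUP98-DDX10, 1 lower in untreated NUP98-JARID1A than controls, 3 lower in untreated NUP98-JARID1A than NUP98-DDX10 and 8 lower in untreated NUP98-NSD1 than NUP98-DDX10. NUP98-JARID1A day 5 then had 38 calls and NUP98-NSD1 day 5 had 8. Pooled over all groups, same-numbered libraries did not deviate together. Correlations ran between -0.377 and 0.344 over 9 pairs in each fusion, and a library correlated best with its own number in 12 of 54 cases. Between day 5 and untreated libraries, though, they were 0.344, 0.14 and 0.096 in NUP98-JARID1A and 0.136, 0.043 and 0.248 in NUP98-NSD1. In NUP98-DDX10 they were -0.005, -0.118 and -0.07. Whether libraries of the same number were paired is not given in the labels. Leaving out 1 library at a time gave, for day 5 against untreated, 35 to 40 lower in NUP98-JARID1A, 4 to 17 in NUP98-NSD1 and 0 to 1 in NUP98-DDX10, with 0 to 2 higher there. For day 3 it gave 0 to 4 lower in NUP98-JARID1A and 0 to 3 higher and 0 to 1 lower in NUP98-NSD1, and between days 30 to 39 and 2 to 24 lower. For differences of effects it gave 24 to 36 (NUP98-JARID1A minus NUP98-DDX10), 0 to 9 (NUP98-NSD1 minus NUP98-DDX10), 7 to 22 (NUP98-JARID1A minus NUP98-NSD1), 27 to 35 (day 5 F-test) and 1 to 3 (day 3 F-test). Against controls it gave 27 to 31, 32 to 38 and 30 to 31 higher for NUP98-JARID1A, NUP98-NSD1 and NUP98-DDX10, and 2 to 3, 0 to 1 and 2 to 4 lower. Between untreated fusions it gave 6 to 10 higher and 3 to 8 lower, 7 to 11 and 10 to 16, and 7 to 12 and 14 to 19, in the order of the report. Depth limits the lowest gene, Fbl, which rested on as few as 16 reads.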

Other observations

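DNA replication and mitosis genes gave different counts at day 5. In NUP98-JARID1A cells 39 of 45 DNA replication genes were called lower (median log2 change -0.74) and 4 of 30 mitosis genes (median -0.14). Of all features 21.2% were called lower there, so the mitosis share was below the background. In NUP98-NSD1 cells 22 replication genes were called lower (median -0.33), with 11.9% of all features. There 4 mitosis genes were called higher, and the share of all features called higher is not given here. In NUP98-DDX10 cells 6 replication genes were called lower (median -0.057, 8.64% of all features) and 7 mitosis genes higher (6.49% of all features). Mxd1, a partner of Max that opposes Myc, rose by 1.49 ± 0.38 on the log2 scale in NUP98-JARID1A cells at day 5 (limma adjusted p 0.00272). It was named after its values were seen. These lists were described by counts and medians, with no test of the lists.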
